A study of Mus musculus and Homo sapiens with 8 samples.

Results

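The 9 genes described here belong to the epithelial-mesenchymal transition (EMT) and to TGF-β signalling, and they were taken by symbol from the 25611 gene symbols of the human count table. All 9 were found. They were read in 2 libraries of MDA-MB-231, a long-established human breast cancer line of triple-negative type with mesenchymal features, plated for 24 hours in medium with 10% serum and then kept for 3 days in DMSO, the solvent, or in 40 µM olaparib. Olaparib blocks PARP1 and PARP2, enzymes that sense DNA breaks. The series also holds 6 mouse libraries, of marrow macrophages and osteoclasts, which were not used. Each human condition had 1 library, so no difference has a replicate check, no p-value is given, and each comparison is between 2 libraries rather than 2 conditions. Treatment, culture and library preparation cannot be told apart in such a pair.

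In EMT, epithelial cells loosen their junctions and take up a motile, mesenchymal form. The switch is driven by repressors such as ZEB1 and SNAI2, which bind E-box motifs and silence junction genes. TGF-β is a classic inducer: the ligand binds TGFBR2, which activates TGFBR1, which phosphorylates SMAD2 and SMAD3, and these enter the nucleus with SMAD4. In breast cancer the pathway is known for its part in invasion and in bone metastasis.

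The DMSO library held 7472981 counts and the olaparib library 6878212. Levels are given in CPM, the count over the TMM-adjusted library size; TMM sets the libraries so that the bulk of genes agree. A floor of 3 counts stands at 0.393 CPM in DMSO and 0.446 CPM in olaparib. Mitochondrial transcripts took 5.61% of counts in DMSO and 4.75% in olaparib. All 8 line markers, among them CD44, AXL, EGFR and the described genes ZEB1 and VIM, were above the floor in both libraries. They summed to 5432 CPM in DMSO and 3643 CPM in olaparib, and all 8 were lower in olaparib, CD44 within counting error. Over all genes with a mean of at least 50 scaled counts, 50.8% were lower. Set against genes of like transcript length and GC content, as described below, 5 of the 8 markers were below the median of their peers. ESR1, the oestrogen receptor that a triple-negative line should lack, had 0 counts in both libraries. Together 6 leukocyte markers reached 1.05 CPM in DMSO and 1.04 CPM in olaparib. Endothelial markers (4 of 5 in the table) summed to 5.63 and 11.3 CPM. PECAM1 had 20 and 45 counts and KDR 23 and 31, with VWF and TEK at 0 in both. Fibroblast markers (6 of 8) summed to 12.3 and 13.2 CPM. Luminal breast markers summed to 419 CPM in DMSO and 585 CPM in olaparib, largely from keratin KRT19. CDH2, often used to define the mesenchymal state, was at the floor.

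The pathway's ligand TGFB2, its receptor TGFBR1 and the EMT repressor ZEB1 were lower in the olaparib library by more than 1 on the log2 scale, and TGFBR2 was lower by less. SMAD3 and VIM differed little, and TGFBI was slightly higher. Transcript length and GC content were taken from the mouse gene of the same symbol. Over the ranked genes with such a match, long and GC-poor transcripts tended to be lower in olaparib. The mouse transcripts of the 3 lowest members are of this kind. When each gene was set against genes of like length and GC content, none of the 8 members with a ratio stood 1 log2 from the median of its peers. Ratios are log2 of olaparib over DMSO with a pseudocount of 1, and their 95% intervals are exact conditional binomial intervals that cover counting error only.

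**Figure D1:**
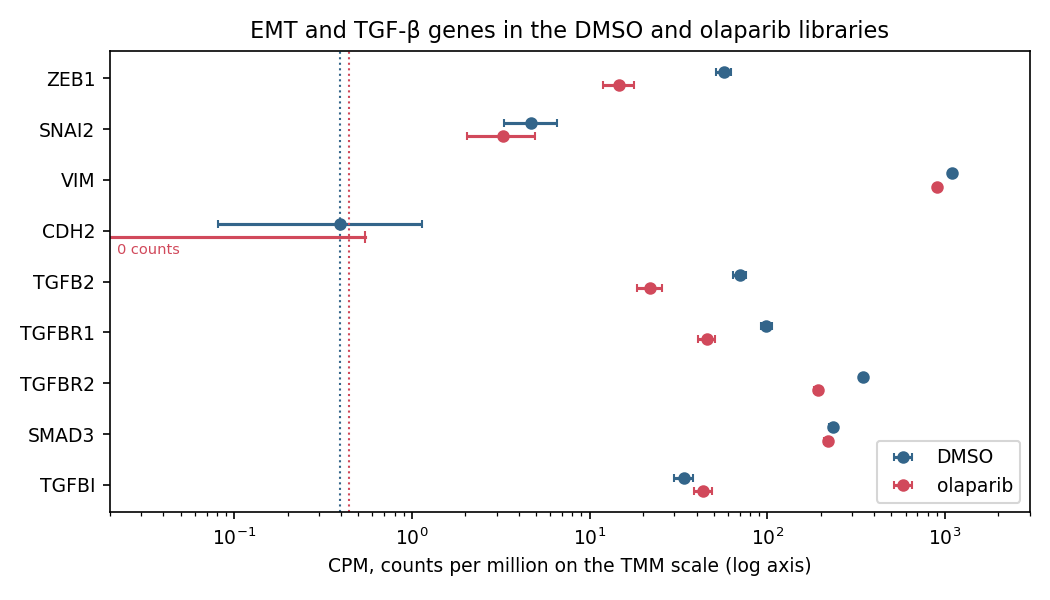
Level of each of the 9 genes in the DMSO (blue) and olaparib (red) libraries, in CPM on a log axis, with exact Poisson 95% intervals for counting error; dotted lines mark the floor of 3 counts in each library. ZEB1, VIM, TGFB2, TGFBR1 and TGFBR2 are lower and TGFBI is higher in olaparib beyond counting error. SNAI2 and SMAD3 are not separated, and CDH2 lies at or under the floor.

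Among the transcription factors, ZEB1, a zinc finger repressor of epithelial genes, had 434 counts in DMSO and 99 in olaparib. Its level was 56.8 CPM (95% counting interval 51.6 to 62.5) against 14.7 CPM (12.0 to 17.9), so the olaparib library held 25.9% of the DMSO level. The log2 ratio was -1.94 (-2.28 to -1.63), and 3.66% of the ranked genes had a lower one. SNAI2, which encodes the repressor Slug, had 36 and 22 counts, or 4.72 and 3.27 CPM. The interval of its ratio ran from -1.36 to 0.28, so a difference was not detectable at this depth. SNAI2 also missed the minimum mean of 50 scaled counts that a gene needed to be ranked.

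Of the structural genes, VIM, the intermediate filament of mesenchymal cells, was abundant in both libraries, with 8387 counts in DMSO and 6099 in olaparib. Its level was 1099 CPM against 906 CPM, a log2 ratio of -0.28 (-0.33 to -0.23). The difference exceeded counting error because the counts were many, and the olaparib library kept 82.5% of the DMSO level. CDH2, the N-cadherin that replaces E-cadherin in many mesenchymal cells, had 3 counts in DMSO and 0 in olaparib. Both values are at or under the floor, so no ratio is given.

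For the ligand, TGFB2 had 534 counts in DMSO and 147 in olaparib, or 69.9 CPM (64.1 to 76.1) against 21.8 CPM (18.4 to 25.7). The log2 ratio was -1.67 (-1.95 to -1.41), with 7.05% of ranked genes lower. Its relative TGFB1, the most studied isoform, had 1641 and 1957 counts (ratio 0.43, 0.34 to 0.53). TGFB3 had 41 and 46 counts, and its interval of -0.29 to 0.99 holds 0. Of the reads on these 3 ligand genes, TGFB2 took 24.1% in DMSO (exact binomial 95% interval 22.3 to 25.9%) and 6.84% in olaparib (5.81 to 7.99%). The ratio of TGFB2 to TGFB1 counts, which no scaling of libraries can alter, changed by -2.12 log2 (-2.40 to -1.83). Neither this ratio nor the share allows for transcript length and GC content, in which the 2 genes differ. The mouse transcript of TGFB1 has 2175 bases at 62.5% GC, that of TGFB2 5116 at 46.9%. Set against genes of like length and GC content, TGFB1 stood at -0.21 and TGFB2 at -0.70, a smaller gap.

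Both signalling receptors were lower. TGFBR1, the type I receptor kinase, had 754 counts in DMSO and 308 in olaparib, or 98.8 CPM (91.8 to 106) against 45.7 CPM (40.8 to 51.2). The olaparib library thus held 46.3% of the DMSO level, a log2 ratio of -1.11 (-1.31 to -0.92). TGFBR2, the type II receptor that binds ligand first, had 2646 and 1304 counts, or 347 CPM (334 to 360) against 194 CPM (183 to 204). Its ratio was -0.84 (-0.94 to -0.74), which is 55.9% of the DMSO level and short of the size rule of 1 log2. The count of TGFBR1 reads per TGFBR2 read went from 0.285 to 0.236, a change of -0.27 log2 (-0.49 to -0.05), a smaller shift than the ratio of either gene.

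SMAD3, the receptor-activated transducer that binds DNA, had 1780 counts in DMSO and 1474 in olaparib, or 233 CPM against 219 CPM. Its ratio of -0.09 had an interval of -0.19 to 0.01, which holds 0. That interval takes the scaling as given: the ratio was -0.15 with equal totals and -0.27 on the deposited scale. SMAD2, the other transducer of the TGF-β receptors, had 454 and 172 counts (-1.21, -1.48 to -0.96), and SMAD4, their common partner, had 326 and 185 (-0.63, -0.90 to -0.37). SMAD3 counts per SMAD2 count went from 3.92 to 8.57, a change of 1.13 log2 (0.85 to 1.41). This change did not hold against genes of like length and GC content. There SMAD3 stood at -0.33, below SMAD2 at 0.02, and SMAD4 stood at -0.44. The mouse transcript of SMAD2 has 8089 bases at 44.9% GC.

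TGFBI, a secreted matrix protein named for its induction by TGF-β, had 259 counts in DMSO and 294 in olaparib, or 33.9 CPM (29.9 to 38.3) against 43.7 CPM (38.8 to 49.0). Its ratio of 0.36 (0.12 to 0.61) was the only positive one among the 8 members with a ratio.

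Across the members, 7 of 9 had a mean of at least 50 scaled counts and could be ranked. Of these, 3 were lower by at least 1 log2 and 0 were higher. Among all 10280 ranked genes 21.2% were lower by that much and 7.82% were higher. In all, 6 of the 7 had a ratio below 0, as had 50.8% of the ranked genes. The members' median ratio was -0.84, against -0.02 for all ranked genes. In the order of ratios, from ZEB1 through TGFB2, TGFBR1, TGFBR2, SNAI2, VIM and SMAD3 to TGFBI, neighbours could not all be told apart. Of the 28 pairs of members with counts above the floor, the interval of the change in count ratio excluded 0 in 23. The other 5 were ZEB1 with TGFB2 (-0.70 to 0.15) and SNAI2 with VIM, TGFBR1, TGFBR2 and SMAD3. These ratios are free of library scaling, but not of anything that acts on 1 transcript more than another.

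**Figure D2:**
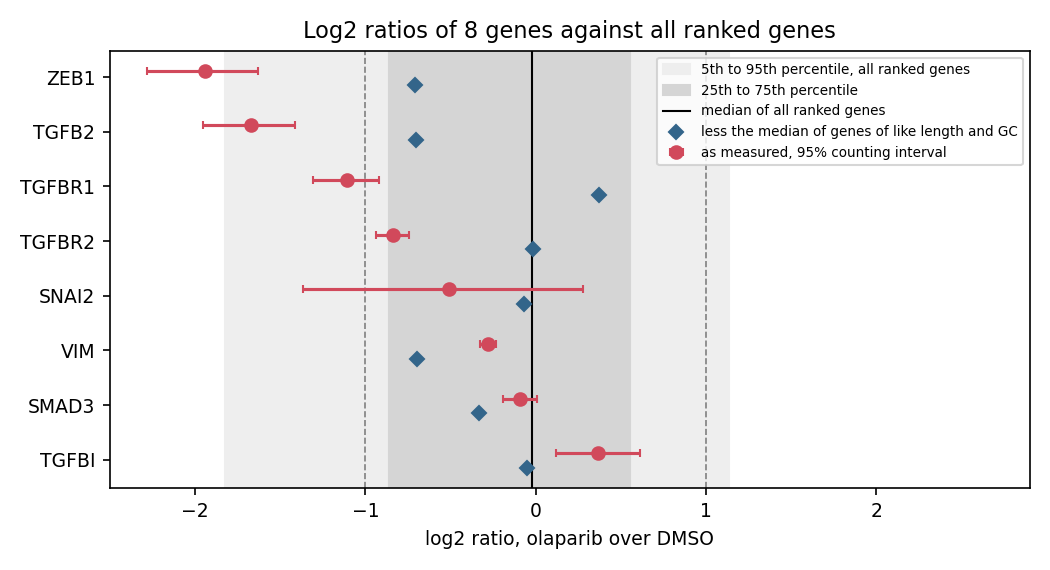
Log2 ratio of olaparib over DMSO for the 8 genes with a ratio (red, with 95% counting intervals). Blue diamonds show the same ratio less the median of genes of like mouse transcript length and GC content. Gray bands give the spread of all ranked genes, and dashed lines stand at 1 log2 either way. ZEB1 lies below the 5th percentile of all ranked genes (-1.82), TGFB2 lies within the 5th to 95th percentile band, and no diamond reaches a dashed line.

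The ratio went with properties of the transcript across the ranked genes. For 9035 of the 10280 ranked genes (87.9%) the mouse gene of the same symbol gave a transcript length and GC content, as no human transcripts were used here. Over these genes the log2 ratio had a Spearman correlation of -0.51 with length and 0.65 with GC content, given as a description across genes of 1 pair of libraries. The median ratio went from 0.66 in the shortest of 10 bins to -1.16 in the longest, and from -1.01 in the bin poorest in GC to 0.68 in the richest. The members with the lowest ratios sit on the long, GC-poor side. The mouse transcript of ZEB1 has 5801 bases at 46.1% GC, that of TGFB2 has 5116 at 46.9%, and that of TGFBR1 has 5756 at 41.0%. By contrast VIM has 2193 bases at 53.9% and TGFBI 2714 at 52.9%. The other members with a ratio are mixed: SMAD3 has 5090 bases at 53.1%, TGFBR2 8092 at 49.6% and SNAI2 2021 at 42.6%.

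**Figure D3:**
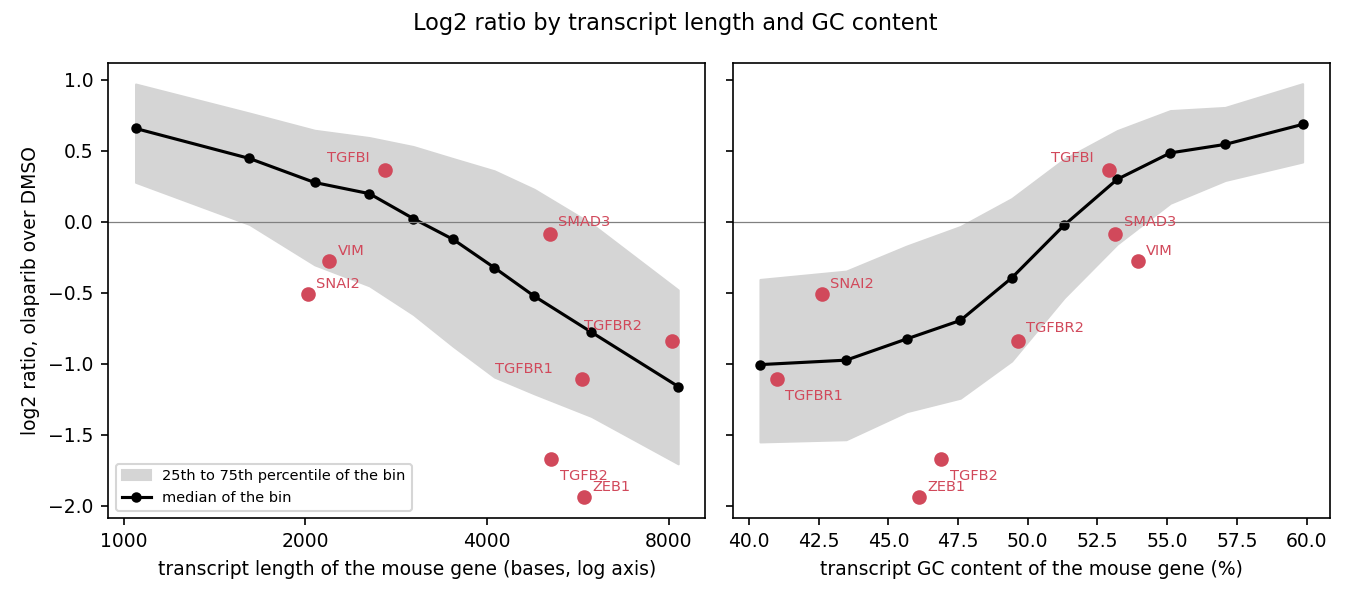
Log2 ratio of olaparib over DMSO against the transcript length (left, bases, log axis) and GC content (right, percent) of the mouse gene of the same symbol: black points are medians of 10 bins of about equal size drawn at the middle value of each bin, gray the 25th to 75th percentile, red the 8 genes. The bin medians run from 0.66 to -1.16 with length and from -1.01 to 0.68 with GC content; ZEB1 and TGFB2 lie below the gray band in both panels.

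Set against the median of genes in the same of 25 bins of length and GC content, the members drew together. ZEB1 had a difference of -0.71, VIM of -0.69 and TGFB2 of -0.70. In its own bin ZEB1 was undercut by 59 of 464 other genes, TGFB2 by 59 of 399 and VIM by 33 of 379. In ZEB1's bin, 64.7% of the other genes were themselves lower by at least 1 log2. TGFBR1 turned to 0.37, above the median of its bin, where 76.8% of the other genes were lower by at least 1 log2. TGFBR2 was at -0.01, TGFBI at -0.05, SMAD3 at -0.33 and SNAI2 at -0.07. On this scale 0 of 7 ranked members were lower by 1 log2, against 5.84% of all genes so centred, and the members' median was -0.33. How far the length and GC trend reflects the cells or the libraries was not tested.

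Receptors and SMADs beyond the members were mostly lower as measured. The counts below are to be read against the 21.2% of all ranked genes that were lower by at least 1 log2 and the 7.82% that were higher. Of 14 TGF-β family receptors, 8 were ranked, and 6 were lower by at least 1 log2 with 0 higher (median -1.32). Without TGFBR1 and TGFBR2 these were 5 of 6. BMPR1A and BMPR2, receptors for bone morphogenetic proteins, had ratios of -1.89 and -1.80, the activin receptor ACVR2B -1.65 and the co-receptor betaglycan, TGFBR3, -1.54. After centring on length and GC, 1 of the 8 stayed past 1 log2, ACVR2B at -2.00, the lowest of its bin, and the median was -0.36. Of 9 ranked SMADs and cofactors, 5 were lower by at least 1 log2 and 0 higher (median -1.21), or 5 of 8 without SMAD3, led by SMAD5 (-1.76) and SMAD9 (-1.44), which transduce bone morphogenetic protein signals. The list also held the SMAD4 regulator TRIM33 (-1.39) and the SMAD anchor ZFYVE9 (-1.32). After centring 0 of the 9 were past 1 log2, with a median of -0.09.

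Among 8 ranked ligands, TGFB2 was lower and GDF15, a stress-induced member of the family, was higher. GDF15 had 168 counts in DMSO and 2502 in olaparib (4.07, 3.85 to 4.31). After centring GDF15 stood at 3.31 and TGFB2 at -0.70, and the list's median went from 0.14 to -0.32. Another ligand, INHBB (-0.62 as measured), was then the only 1 of the 8 lower by 1 log2, at -1.10. Of all genes so centred, 5.84% were lower by that much. Of 10 ranked genes that store or release latent TGF-β, 2 were lower by at least 1 log2, a share close to that of all genes. They were the integrin subunit ITGAV (-1.91), which helps free TGF-β from its latent complex, and LTBP1 (-1.28), which tethers that complex to matrix. After centring they stood at -0.42 and -1.20. Of 14 ranked inhibitors, SKIL (-1.53), a SMAD corepressor, and SMURF2 (-1.04), a ubiquitin ligase for the receptors, were lower, at -0.04 and 0.20 after centring; with upper quartile scaling SMURF2 fell short of 1 log2. BAMBI, a decoy receptor, was higher at 1.57, from 258 to 677 counts, and at 2.72 after centring. The inhibitory SMAD7 had 183 and 227 counts (0.49, 0.20 to 0.78) and SMAD6 had 43 and 44 (-0.42 to 0.86).

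Target genes were mixed. Of 27 ranked TGF-β targets, 4 were higher by at least 1 log2 and 1, SKIL, was lower, and the median was 0.10, or -0.08 on the deposited scale. ANGPTL4, a secreted lipase inhibitor, went from 49 to 222 counts (2.34), the cytokine IL11 from 189 to 648 (1.95) and the AP-1 subunit JUNB from 395 to 1028 (1.56). CDKN1A, the p21 cell cycle inhibitor and also a p53 target, stood at 1.64. After centring 5 of the 27 were higher, against 5.81% of all genes so centred, with IL11 at 1.98 and ANGPTL4 at 2.53 among them, and JUNB was at 0.80. Many of these genes answer to other signals as well.

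The EMT lists were mixed. ZEB2, the paralogue of ZEB1, had 95 counts in DMSO and 35 in olaparib (-1.24, -1.86 to -0.69), and 0.24 after centring. SNAI1, the repressor Snail, had 12 and 34 counts (1.60, 0.70 to 2.77), too few to be ranked, so SNAI2 per SNAI1 count went from 3.00 to 0.647. TWIST1 and CDH11 were not analysed here. Of 16 ranked mesenchymal genes, 2 were lower by at least 1 log2, the integrin subunit ITGB1 (-1.87) and the surface enzyme NT5E (-1.32), and 2 were higher, the calcium-binding S100A4 (1.04) and the myosin light chain MYL9 (1.00). Neither higher call held with equal totals, and the list's median, 0.01, changed sign with scaling. After centring 0 of the 16 were lower by at least 1 log2 and 3 were higher, with a median of 0.15. Of all genes so centred, 5.84% were lower and 5.81% higher. ITGB1 then stood at -0.90, NT5E at -0.35, S100A4 at 0.71 and MYL9 at 0.24. The fibronectin gene FN1 had 6839 and 3673 counts (-0.72, -0.77 to -0.66). Of 12 ranked epithelial genes, the junction genes TJP1 (-2.74) and DSP (-1.16) were lower and CLDN3 (1.27) was higher. Their median of 0.36 became -0.19 after centring, where TJP1 stayed lower at -1.51. DSP then stood at -0.33 and CLDN3 at 0.51, both short of 1 log2. CDH1, the E-cadherin that ZEB1 represses, had 38 and 19 counts, and its interval ran from -1.70 to 0.01.

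**Figure D4:**
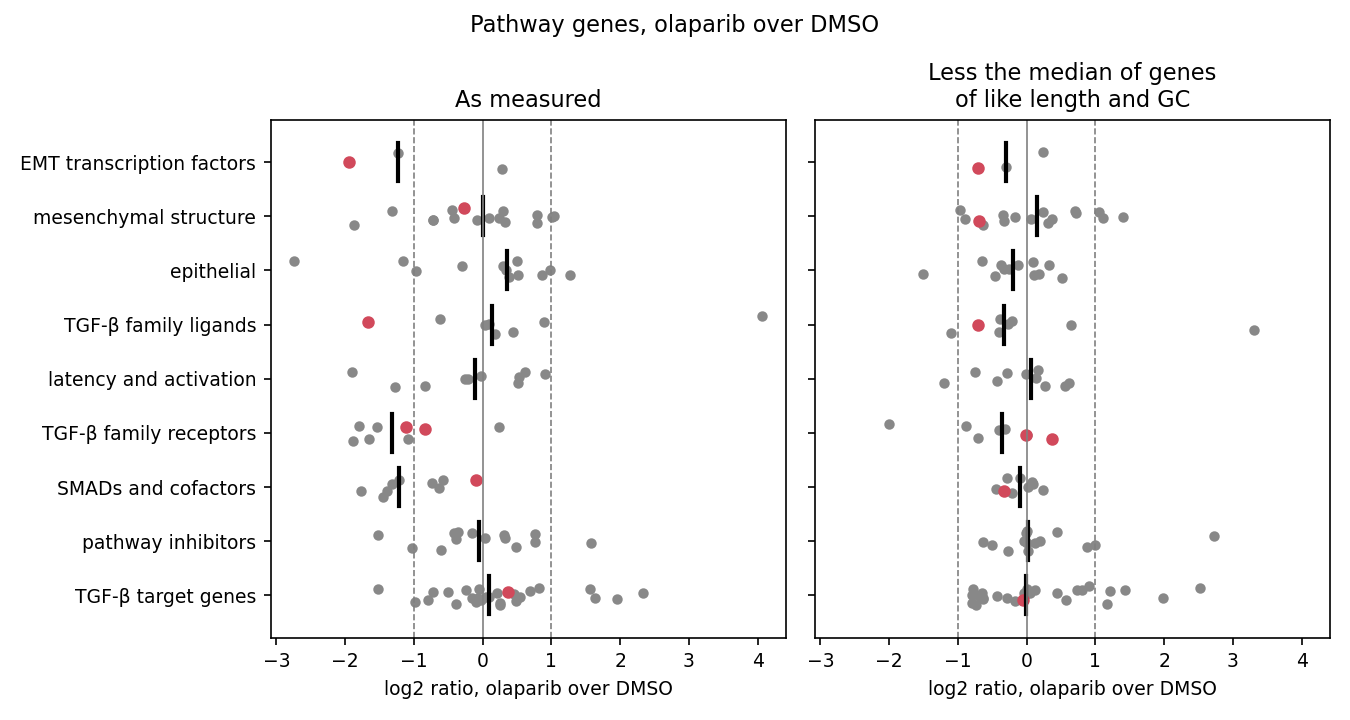
Log2 ratio of olaparib over DMSO for the ranked genes of 9 pathway lists (points, with the described genes in red), as measured on the left. On the right each ratio is less the median of genes of like mouse transcript length and GC content. Black bars are list medians, and dashed lines stand at 1 log2 either way. The receptor and SMAD medians of -1.32 and -1.21 on the left stand at -0.36 and -0.09 on the right.

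Antisense genes lie beside some members, and how strand was handled in counting is not stated in the labels, so their reads may not have been told apart. ZEB1-AS1 had 45 counts in DMSO and 36 in olaparib, VIM-AS1 had 45 and 35, and TGFB2-AS1 had 2 and 0. The counts of VIM-AS1 and TGFB2-AS1 are small beside those of VIM and TGFB2. Those of ZEB1-AS1 are not small beside the 99 counts of ZEB1 in olaparib, and their part in the ZEB1 ratio was not tested. As the libraries are bulk, fewer cells with a transcript and less of it per cell cannot be told apart.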

How the data were processed

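RNA sequencing counts of MDA-MB-231 cells, from 1 DMSO and 1 olaparib library, were analysed; groups follow the treatment labels. The deposited values are whole-number counts per gene symbol, in a table named as normalized. STAR 2.6.0c, featureCounts 1.6.2 and the builds hg19 and mm10 are named, without role or order, by the submitters' processing notes. Whether the values are raw was checked on the whole numbers from 1 to 60: the chi-square of their frequencies about a fitted polynomial, per degree of freedom, was 0.865 and 1.36 as deposited, and 2.66 to 4.43 after the values were lowered or raised by 3% and rounded. They were therefore used as counts.

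Scaling used TMM (edgeR 4.0.16, R 4.3.3) over 13285 genes with a mean count of at least 10. Ratios are log2 of scaled olaparib over DMSO counts with a pseudocount of 1; genes with a mean scaled count of at least 50 were ranked, and the size rule was 1 log2. Intervals (scipy 1.17.1) and floors cover counting error only. Length and GC content came from the longest protein-coding transcript of the mouse gene of the same symbol (GENCODE M21); centring subtracted the median ratio of the gene's bin. Calculations were tested on simulated data. Results of some genes are not reported. The genes named are the 9 members, their nearest relatives, and up to 5 genes per list and direction past the size rule. Other genes named were chosen after their values were seen: the antisense genes, the ligand INHBB and the markers CD44, AXL, EGFR, ESR1, KRT19, PECAM1, KDR, VWF and TEK. Members and lists were chosen with earlier results of these data known. Alternatives covered scaling (DESeq2 1.42.0 size factors, upper quartile, equal totals, deposited scale), pseudocount, minimum, size rule and centring. Mouse libraries were left out because the members are human.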

Additional observations from a re-analysis of the deposited data

How the results depend on the processing

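Under 7 alternatives of scaling and pseudocount the 8 members with a ratio kept their direction: ZEB1 ranged from -2.12 to -1.88, TGFB2 from -1.85 to -1.62, TGFBR1 from -1.29 to -1.05, TGFBR2 from -1.02 to -0.78, SNAI2 from -0.69 to -0.45, VIM from -0.46 to -0.22, SMAD3 from -0.27 to -0.03 and TGFBI from 0.18 to 0.42. The deposited scale, which shifts every ratio by -0.18, moved the members' median to -1.02, that of all genes to -0.21 and the genes higher by 1 log2 from 804 to 448, with TGFBR2 then past 1 log2. A minimum mean of 10 gave a members' median of -0.68 and 1371 higher genes, and no minimum gave 4506 lower and 4733 higher. At 0.5 log2, 3564 genes were lower and 2847 higher. Centring on mouse transcript properties was chosen after seeing the data. By length the members' median was -0.33, 2 members (ZEB1 and TGFB2) and 1168 genes were lower, and TGFBR2 and SMAD3 turned to 0.32 and 0.44; by GC the median was -0.44, SNAI2 turned to 0.47, 1 member (ZEB1) and 717 genes were lower, and by both the median was -0.33, 0 members and 528 genes were lower, 525 were higher, and TGFBR1 reversed to 0.37. The recomputed member ratios and the values of the other lists were also counted together, without the counts and medians of the members and of all genes. Of these, 391 stayed within their counting interval, 0.1 log2 (medians) or 1.5 times (counts), 141 moved and 1, that of TGFBR1, reversed. Some of the 391 could not move: the size rule and the minimum do not enter a member's ratio, nor the size rule a median. The cause of the trend was not tested. The planned centring on human transcript length and GC was not run, since no human transcripts were used here; no replicate could be left out. No paired analysis was possible because each condition had 1 library. Depth limits SNAI2, CDH1, SNAI1 and TGFB3, and CDH2 cannot be compared.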
